A study of Mus musculus with 64 samples.

Results

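The cytosolic ribosomal protein genes code for the proteins of the ribosome that translates nuclear mRNAs. Members were taken by gene name, namely Rpl or Rps followed by a number and, where present, a letter. Rpsa, Rplp0, Rplp1, Rplp2 and Fau were added. Names that hold -ps and the Rps6k kinases were left out, and no filter on the annotated transcript type was used. The rule gave 87 of the 46785 genes in the tables, 50 of the large and 37 of the small subunit, on 20 chromosomes. They hold 389 annotated transcripts, and 86 genes entered the tests, since Rpl10l had a mean FPKM (fragments scaled to transcript length and to the mapped fragments of the library) below 0.1 in both tissues. RNA was sequenced from the nucleus accumbens (NAc) and the prefrontal cortex (PFCx) of adult male C57BL/6N mice, 8 to 10 weeks old and with no genetic change named in the sources used here, 2 h after 1 intraperitoneal injection. The treatments were haloperidol at 1 mg/kg, risperidone at 0.5 mg/kg, mianserin at 20 mg/kg, venlafaxine at 16 mg/kg, methamphetamine at 2 mg/kg or ketamine at 20 mg/kg, with 4 libraries per drug and tissue. Saline controls had 8 libraries per tissue, 4 labelled saline I and 4 labelled saline II, called sets I and II here. All drugs were dissolved in saline, and haloperidol and risperidone also received a drop of hydrochloric acid. The labels name no animal, so that the NAc and PFCx libraries may or may not share mice, and p-values measure the spread between libraries only.

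The estimated depth was 1.52 to 3.26 gigabases per library with a median of 2.39. The number of transcripts above 0 FPKM in the NAc was 85287 to 87827 after haloperidol, risperidone or methamphetamine and in saline set I, and 107099 to 110556 after mianserin, venlafaxine or ketamine and in saline set II. These 2 sample sets were read from the tables and not from the labels, and in the PFCx, where the same drugs were assigned to the same sets, the numbers overlapped. In saline, 7 of 7 striatal marker genes were wholly above the PFCx in the NAc, and 6 of 6 cortical marker genes were wholly above the NAc in the PFCx. The striatal markers summed to 21.2 to 34.8 FPKM in PFCx set I. In PFCx set II they summed to 20.1 to 74.4 FPKM, with a median of 23.2. The oligodendrocyte markers Mbp, Mog and Mobp summed to 344 to 476 FPKM in the NAc and to 84.4 to 119 FPKM in the PFCx. In such bulk samples, fewer cells of a type and less RNA per cell cannot be told apart.

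Ribosomal proteins are made in equal amounts for a particle that holds a single copy of most of them. Their mRNAs are short and abundant, and start with a pyrimidine tract through which growth signals set their translation. Many of the genes also carry small nucleolar RNAs (snoRNAs) in their introns. The snoRNAs are cut from the spliced-out intron and guide the 2′-O-methylation (box C/D type) or pseudouridylation (box H/ACA type) of ribosomal and other RNAs. An annotated transcript that retains such an intron therefore holds the snoRNA within its own sequence, and in RNA depleted of ribosomal RNA rather than selected for poly(A) both kinds of molecule can be read. The GENCODE vM21 annotation placed 57 snoRNAs inside 29 members. Of these, 20 overlapped an exon of an annotated transcript of their host, in 17 members, and 37 lay in introns only.

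The following 5 snoRNAs are shown because their host genes are members whose differences between the saline sets or after ketamine changed when the transcripts that hold the snoRNA were left out. The sequences were taken from the GENCODE transcripts of build GRCm38 and run 5′ to 3′ on the strand of the gene. Capitals mark the box motifs searched on that strand, ACA at 3 bases from the end for box H/ACA, and TGATGA with the last CTGA after it for box C/D. Over the 57 snoRNAs, 20 held the first, 22 held the second pair and 15 held neither in this form.

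Gm26205 in Rpl6, chr5:121205010-121205143, plus strand, 134 bases: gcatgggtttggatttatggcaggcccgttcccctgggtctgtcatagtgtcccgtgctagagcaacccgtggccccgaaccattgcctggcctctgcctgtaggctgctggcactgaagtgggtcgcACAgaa
Snora7a in Rpl32, chr6:115807975-115808114, minus strand, 140 bases: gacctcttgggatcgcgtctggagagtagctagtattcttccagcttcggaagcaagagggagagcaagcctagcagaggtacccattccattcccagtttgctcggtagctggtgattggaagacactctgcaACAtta
Snora70 in Rpl10, chrX:74272484-74272620, plus strand, 137 bases: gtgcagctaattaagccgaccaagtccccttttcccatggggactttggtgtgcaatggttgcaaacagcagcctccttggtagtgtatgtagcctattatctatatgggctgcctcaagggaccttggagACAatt
Snord15b in Rps3, chr7:99479563-99479707, minus strand, 145 bases: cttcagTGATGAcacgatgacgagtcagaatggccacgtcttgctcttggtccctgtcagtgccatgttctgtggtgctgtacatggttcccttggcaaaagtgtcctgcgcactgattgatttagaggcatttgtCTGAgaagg
Gm24523 in Rpl30, chr15:34440791-34440922, minus strand, 132 bases: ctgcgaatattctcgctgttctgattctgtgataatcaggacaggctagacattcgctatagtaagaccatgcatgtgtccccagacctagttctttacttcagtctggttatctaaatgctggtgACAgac

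The 4 snoRNAs of the H/ACA type lie in large-subunit genes and Snord15b, of the C/D type, lies in a small-subunit gene.

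The median member had a mean of 23.6 FPKM over the 64 libraries, with quartiles of 14.2 and 31.2 and a range from 0.149 to 321. The 5 highest were Rpl6 at 321 FPKM, Rpl32 at 116, Rplp1, an acidic protein of the stalk that recruits translation factors, at 93.5, Rpl10, which is added late in the maturation of the large subunit, at 76.9, and Rpl41, the shortest ribosomal protein, at 66.5. The stalk proteins Rplp2 and Rplp0 had 48.0 and 27.7 FPKM. Rpsa, the small-subunit protein also known as the laminin receptor, had 28.4 FPKM, and Fau, whose product is cut into a ubiquitin-like protein and the small-subunit protein Rps30, had 19.6 FPKM. Rplp0, Rpsa and Fau thus lay between the quartiles, with Fau below the median, and Rplp1 and Rplp2 lay above the upper quartile.

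The 5 lowest of the tested members were Rpl39l at 0.149 FPKM, Rpl3l at 0.213, Rps27l at 2.10, Rps3a3 at 3.65 and Rpl7l1 at 3.68. Most are paralogs of a main gene with a far higher level, since Rpl39 had 13.6 FPKM, Rpl3 60.7, Rps27 28.2 and Rpl7 29.8. Rpl3l is known as a muscle form and Rpl10l as a testis form, and Rpl10l had a mean of 0.0517 FPKM. The pair Rpl22 and Rpl22l1 was closest, at 18.9 and 13.8 FPKM, and Rps4x, the X-linked gene, had 30.9 FPKM against 3.72 for its autosomal copy Rps4l. Rps12l1, Rps3a2 and Rps3a3 are near-identical copies of Rps12 and Rps3a1, so that their values are uncertain. The Rps12l1 transcript is annotated as a processed pseudogene. An annotated coding transcript was present for 83 of the 87 members, and not for Rps12l1, Rps3a2, Rps3a3 and Rps4l.

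Protein-coding transcripts numbered 188 and carried 70.2% of the member FPKM, and 127 retained-intron transcripts carried 22.6%. The 27 transcripts that hold a snoRNA, from 17 genes and of either type, carried 22.4%. They included 3 of the 10 most abundant member transcripts. In Rpl6 a retained-intron transcript of 714 bases (ENSMUST00000197044, chr5:121204546-121205259), which holds Gm26205, carried 91.9% of the gene's FPKM, with a mean of 295. In Rpl32 a coding transcript of 906 bases (ENSMUST00000203816, chr6:115805512-115808348), which holds Snora7a, carried 97.6%, with a mean of 114 FPKM. In Rpl10 a retained-intron transcript of 699 bases (ENSMUST00000146584, chrX:74271837-74272806), which holds Snora70, carried 69.4%, with a mean of 53.4 FPKM. The high rank of Rpl6, Rpl32 and Rpl10 among the members rests on these transcripts.

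The comparison of saline sets I and II shows how far control libraries given the same treatment differed. The coding transcripts that hold no snoRNA, summed over the members, had 1980 to 2614 FPKM in the 16 NAc libraries of sample set I and 959 to 1619 FPKM in the 16 of set II. The NAc sets did not overlap, whatever the drug. In the PFCx, replicates 1 to 3 had 2015 to 2528 FPKM in set I and 1155 to 1650 FPKM in set II. Replicate 4 was lower, at 1337 to 1452 FPKM in set I and 908 to 1299 FPKM in set II. It was the lowest of its group in 8 of 8 PFCx groups and in 1 of 8 NAc groups.

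**Figure D1:**
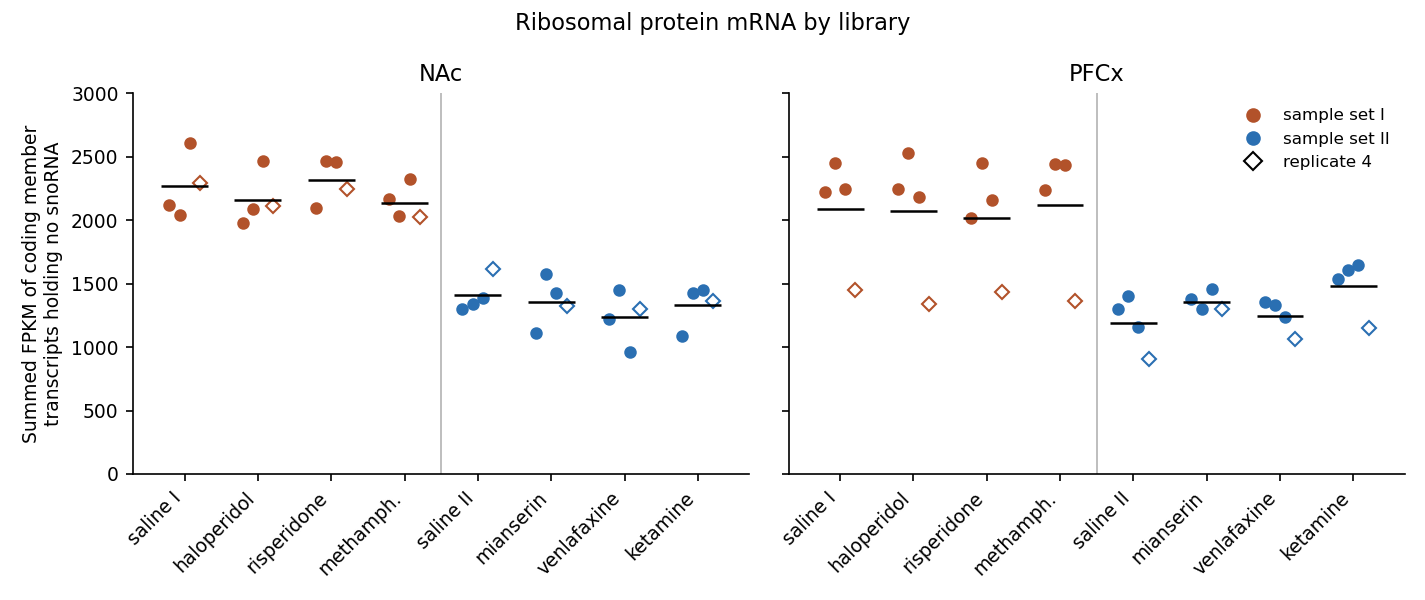
Summed FPKM of the coding member transcripts that hold no snoRNA (vertical axis, linear from 0), 1 point per library, in the 16 groups of tissue and treatment (horizontal axis), coloured by sample set, with lines at the group means and open diamonds for replicate 4. The NAc groups of set I lie between 1980 and 2614 and those of set II between 959 and 1619, and in each PFCx group replicate 4 is the lowest point.

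Between saline set I and saline set II the members differed in both tissues, mostly with set I higher. In the NAc 46 of 86 members were higher in set I, where 3.88% of all 37034 genes were, and 4 were lower, where 9.56% of all genes were (limma on log2(FPKM + 1), Benjamini-Hochberg adjusted p under 0.05 over all genes). In the PFCx 51 of 86 were higher and 0 lower, where 4.94% and 4.18% of all genes were. The median difference on the log2 scale was 0.55 (NAc) and 0.73 (PFCx), against -0.08 and 0.01 over all genes. A total of 40 members were higher in both tissues, 87.0% of those of the NAc and 78.4% of those of the PFCx. The matching overlap over all genes is not given here, so these shares are not a trait particular to the members. In the NAc 54 members had all 4 set I libraries above all 4 of set II, which held for 5.71% of all genes, and 6 had them all below, which held for 24.2%. In the PFCx these were 47 and 0 members, and 6.83% and 6.45% of all genes.

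Among the members higher in set I, Rps29, a zinc-binding protein of the small-subunit head, had the lowest p in both tissues. Its FPKM in the NAc was 21.4, 19.8, 23.2 and 24.9 in set I and 7.33, 5.01, 7.75 and 8.37 in set II. In the PFCx it was 30.9, 32.5, 29.1 and 21.9 in set I and 5.61, 6.05, 5.15 and 5.24 in set II. Every set I library of either tissue was thus above every set II library. On the log2(FPKM + 1) scale the sets differed by 1.54 ± 0.14 (SE, n = 4 per set) in the NAc (limma, adjusted p = 1.4e-05) and 2.17 ± 0.14 in the PFCx (limma, adjusted p = 3.01e-07).

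Rps28, another small protein of the same subunit, had 19.4 to 26.1 FPKM in NAc set I and 6.28 to 9.24 in set II, and 17.1 to 25.7 FPKM in PFCx set I and 5.21 to 6.36 in set II. The groups did not overlap, and the log2 differences were 1.39 ± 0.14 and 1.82 ± 0.14 (limma, adjusted p = 3.85e-05 and 2.03e-06). Rps26, which lies where the mRNA leaves the ribosome, differed by 1.19 (NAc) and 1.89 (PFCx). Rps12 differed by 1.29 and 1.98, and its near-identical copy Rps12l1, annotated as a processed pseudogene, by 1.98 and 2.74. Among large-subunit proteins Rpl38 had 22.3 to 37.6 FPKM in NAc set I and 9.61 to 13.3 in set II, with log2 differences of 1.29 (NAc) and 1.31 (PFCx). Rpl37 differed by 1.23 and Rps27 by 1.32 in the NAc, and Rpl17 by 1.69 and Rps3a2 by 1.66 in the PFCx. All of these passed the test in the tissues named.

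The stalk proteins and the named single genes moved the same way. In the NAc Rplp0 was higher in set I by 0.64, Rplp1 by 0.69, Rplp2 by 0.79, Rpsa by 0.56 and Fau by 1.03 on the log2 scale, and all 5 passed the test. In the PFCx Rplp0 was higher by 0.96, Rplp2 by 0.48, Rpsa by 0.85 and Fau by 1.25, and the difference of 0.41 of Rplp1 did not pass (limma, adjusted p = 0.16). Rplp2 has a transcript that holds a snoRNA. Without it Rplp2 was higher by 1.06 in the NAc and 1.27 in the PFCx (limma, adjusted p = 0.0022 and 3.5e-04). Rpl41 was higher by 0.82 in the NAc and by 1.53 in the PFCx. Several paralogs showed no difference that passed, while the near-identical copies Rps12l1, given above, and Rps3a3, by 0.81 (NAc) and 1.12 (PFCx), were higher in set I in both tissues, and Rps3a2 in the PFCx. Rpl22l1 differed by 0.07 in both tissues, Rpl7l1 by 0.04 in both and Rps4l by 0.21 and -0.06, and none of these passed the test. Rps27l differed by -0.15 and -0.48 and Rpl3l by -0.13 and -0.20, which did not pass either. Rpl39l, close to 0 FPKM in all libraries, was lower in NAc set I by 0.17 (limma, adjusted p = 0.046).

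Both subunits took part. In the NAc 22 of 49 tested large-subunit members were higher and 4 lower, and 24 of 37 small-subunit members were higher and 0 lower, with median log2 differences of 0.49 and 0.77. In the PFCx 22 of 49 and 29 of 37 were higher and none lower, with medians of 0.48 and 0.89. Of 23 tested translation factors and other mRNAs with a pyrimidine tract, 6 were higher and 0 lower in each tissue, with medians of 0.20 (NAc) and 0.19 (PFCx). Eef1b2, an exchange factor for elongation factor 1, was higher by 0.48 and 0.26. Of 35 ribosome biogenesis genes, 0 were higher and 1 lower in the NAc and 2 higher and 0 lower in the PFCx. Of 77 mitochondrial ribosomal protein genes, whose products translate the mRNAs of the mitochondrial genome, 17 were higher and 0 lower in the NAc and 29 higher and 1 lower in the PFCx. Mrpl14 was higher by 1.15 and 1.40. Over all genes 3.88% were higher and 9.56% lower in NAc set I, and 4.94% and 4.18% in PFCx set I.

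The set difference was larger for members with short coding transcripts, and the medians of other short genes also lay above those of long ones. Among genes with at least 5 FPKM in coding transcripts, 19 members with coding transcripts under 500 bases had a median log2 difference of 0.97 (NAc) and 1.28 (PFCx), against 0.32 and 0.37 for 84 other genes of that length. From 500 to below 1000 bases the medians were 0.66 and 0.87 for 44 members and 0.31 and 0.33 for 319 other genes. From 1000 to below 2000 bases they were 0.55 and 0.44 for 11 members and 0.17 and 0.09 for 803 others. The median of 1551 other genes of 4000 bases and over was 0.04 (NAc) and -0.03 (PFCx). Across the 74 members, Spearman's rho of length and difference was -0.38 (NAc) and -0.41 (PFCx), and across 4325 other genes -0.34 and -0.32, over the same 8 libraries of each tissue. Within each length class the members thus had higher medians than the other genes, by an amount for which no test was made.

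Some marker genes of cell types also passed the test between the sets. For reference, 3.88% of all genes were higher and 9.56% lower in NAc set I, and 4.94% and 4.18% in PFCx set I. Blood markers summed to 36.3 to 52.5 FPKM in NAc set I and 20.9 to 37.6 in set II, and to 48.2 to 68.1 FPKM in PFCx set I and 19.9 to 31.5 in set II. Both of the 2 blood markers passed the test between the sets in the PFCx and 1 of 2 in the NAc. In the NAc 1 of 6 cortical, 1 of 4 astrocyte, 1 of 4 microglia and 1 of 3 oligodendrocyte markers also passed, and in the PFCx 1 of 4 microglia markers, while 0 of 7 striatal, 0 of 4 endothelial and 0 of 2 choroid plexus markers passed in either tissue. The cortical markers summed to 52.6 to 71.2 FPKM in NAc set I and 27.0 to 48.3 in set II, the oligodendrocyte markers to 419 to 476 and 344 to 386, the astrocyte markers to 194 to 215 and 169 to 183, and the microglia markers to 19.6 to 22.6 and 15.6 to 18.2, none of them overlapping. The microglia markers summed to 15.5 to 19.6 FPKM in PFCx set I and 13.0 to 15.0 in set II. The part of these values in the member differences was not tested.

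Of the 4 members that were lower in NAc set I, 3 have an abundant transcript holding a snoRNA. Rpl6 FPKM was 191, 224, 164 and 275 in NAc set I and 591, 575, 581 and 623 in NAc set II, a log2 difference of -1.49 ± 0.14 (SE, n = 4 per set; limma, adjusted p = 2.03e-05). In the PFCx it was 180, 232, 173 and 183 in set I and 175, 238, 207 and 213 in set II. NAc set II therefore stood apart from the 3 other saline groups. Rpl32 was lower in NAc set I by 1.11 ± 0.10 (limma, adjusted p = 9.66e-06) and Rpl10 by 0.85 ± 0.16 (limma, adjusted p = 0.0041).

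In Rpl6 and Rpl32 the transcript that holds the snoRNA and the coding transcript without it went in opposite directions. The Rpl6 transcript that holds Gm26205 had 157, 195, 125 and 244 FPKM in NAc set I and 569, 557, 561 and 603 in NAc set II. The main coding transcript of Rpl6 (ENSMUST00000031617, 1270 bases) had 19.7, 19.2, 24.2 and 22.5 FPKM in NAc set I and 9.60, 9.68, 9.32 and 12.9 in set II. The first was higher and the second lower in set II, with no overlap. The snoRNA Gm26205 has a row of its own in the tables, with 19.4 to 82.3 FPKM in NAc set I and 5.84 to 46.0 FPKM in PFCx set I. In both tissues all 4 set II libraries were below 0.0001 FPKM in that row.

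Rpl32 had 59.8, 71.8, 71.8 and 88.8 FPKM in NAc set I and 172, 174, 178 and 153 in NAc set II for the transcript holding Snora7a. Its coding transcript without the snoRNA (ENSMUST00000081840, 517 bases) had 5.35, 4.75, 9.78 and 1.25 FPKM in NAc set I and 0.489, 0.569, 0.445 and 0.901 in set II. Rpl10 had 22.2 to 55.5 FPKM in NAc set I and 84.3 to 95.5 in NAc set II for the transcript holding Snora70, and 43.8 to 73.4 in PFCx set I and 29.3 to 39.7 in PFCx set II. The order of the sets was thus reversed between the tissues. The Rps3 retained-intron transcript with Snord15b (ENSMUST00000128725, 3183 bases, chr7:99478893-99483650) behaved alike, with 8.73 to 20.1 FPKM in NAc set I, 29.2 to 37.0 in NAc set II, 21.9 to 31.5 in PFCx set I and 11.6 to 16.3 in PFCx set II. Rps3, a protein at the mRNA entry site, had 9.10 to 12.6 FPKM in NAc set I and 5.46 to 7.04 in NAc set II for its longer coding transcript.

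**Figure D2:**
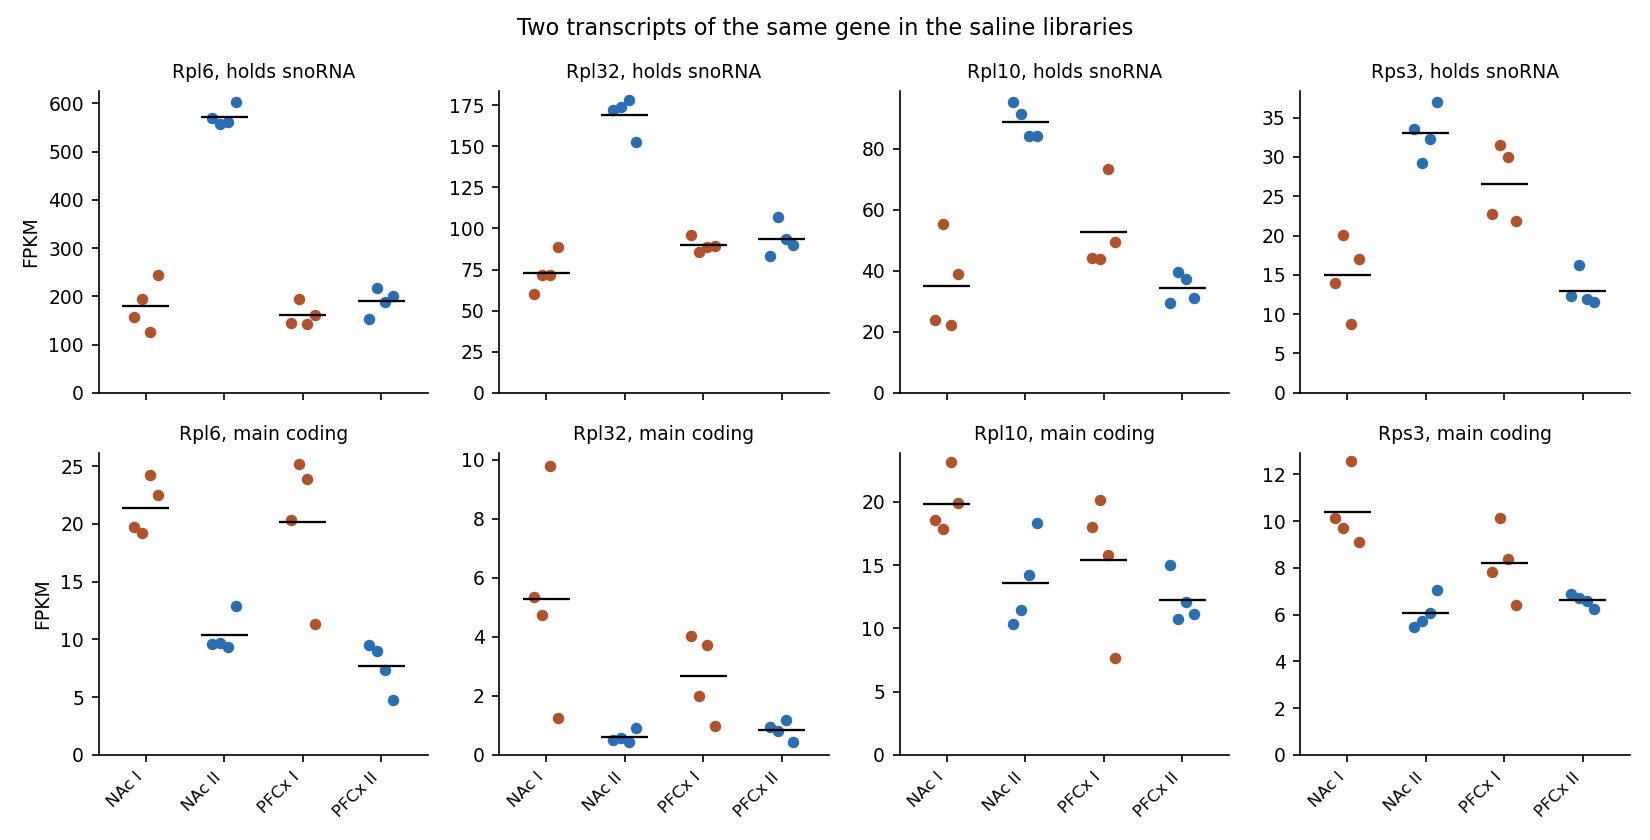
FPKM (vertical axes, linear from 0, with a scale of their own in each panel) of the transcript that holds a snoRNA and of the main coding transcript without one, for Rpl6, Rpl32, Rpl10 and Rps3, 1 point per saline library in the 4 groups of tissue and set, with lines at the group means. For Rpl6 in the NAc the snoRNA-holding transcript is at 125 to 244 in set I and 557 to 603 in set II, and the coding transcript at 19.2 to 24.2 and 9.32 to 12.9.

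At the transcript level, 42 of 370 tested member transcripts passed the test between the NAc sets, against 1.38% of all transcripts, and 60 between the PFCx sets, against 4.32%. Of the 178 coding transcripts without a snoRNA, 23 were higher and 0 lower in NAc set I, and 39 were higher and 3 lower in PFCx set I. Of the 27 snoRNA-holding transcripts, 1 was higher and 8 were lower in the NAc, and 3 were higher and 0 lower in the PFCx. Of the 98 retained-intron transcripts without a snoRNA, 5 were higher and 0 lower in the NAc. In the PFCx 6 were higher and 1 lower, so that in both tissues retained-intron transcripts without a snoRNA were more often higher than lower in set I.

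With the snoRNA-holding transcripts left out of every gene's sum, a choice made after the data were seen, 51 members were higher in NAc set I and 1, Rpl39l, was lower, where 3.89% and 9.49% of all genes were. In the PFCx 53 were higher, where 4.94% of all genes were. The median log2 differences were then 0.65 and 0.82. Rpl6 was higher in NAc set I by 0.68 (limma, adjusted p = 0.023) and Rpl32 by 1.78 (limma, adjusted p = 0.0096), and Rpl10 differed by 0.24 (limma, adjusted p = 0.42). Rps3, at -0.26 with all transcripts, was higher by 1.02 (limma, adjusted p = 0.0020).

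**Figure D3:**
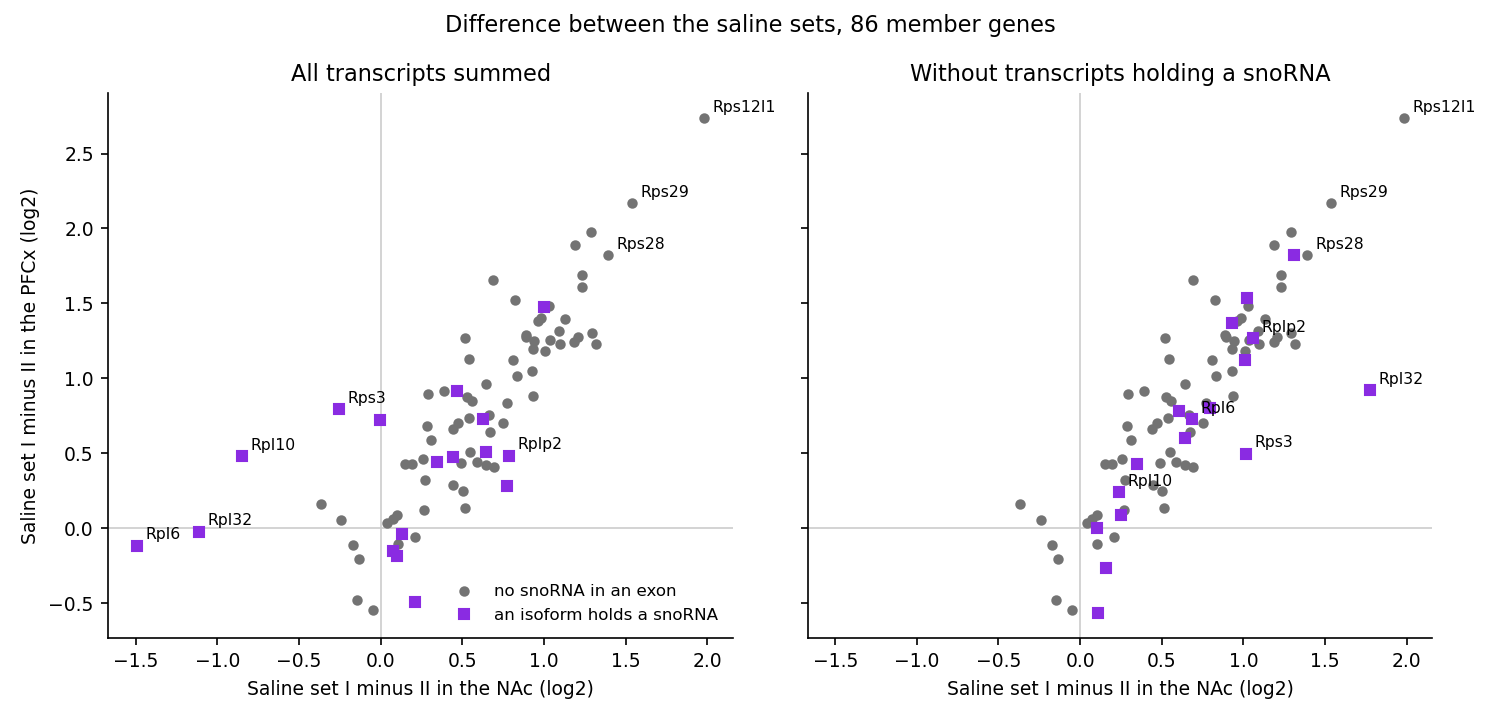
Difference between saline sets I and II (log2(FPKM + 1) scale) in the NAc (horizontal axis) and in the PFCx (vertical axis), 1 point per member, with all transcripts (left) and without snoRNA-holding transcripts (right). Rpl6, Rpl32 and Rpl10 lie at -1.49, -1.11 and -0.85 in the NAc on the left and at 0.68, 1.78 and 0.24 on the right.

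The set difference itself differed between the tissues for 5 members, where 3.77% of all genes passed this test of the interaction. They included Rpl6 (-1.38 ± 0.20 on the log2 scale, NAc minus PFCx), Rpl10 (-1.33 ± 0.22), Rpl32 (-1.09 ± 0.13) and Rps3 (-1.05 ± 0.16). Each of the 5 has a snoRNA-holding transcript. Without those transcripts 0 members passed the test (limma, 11 unadjusted), where 3.72% of all genes did. Without PFCx set I replicate 4 the count with all transcripts was 12. Among single transcripts 6 passed, all of them holding a snoRNA, where 0.541% of all transcripts did. The Rpl30 transcript with Gm24523 (ENSMUST00000135417, 2412 bases) was among them, at 1.34 to 1.71 FPKM in NAc set I, 5.61 to 7.45 in NAc set II, 2.44 to 3.83 in PFCx set I and 2.84 to 3.28 in PFCx set II.

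The snoRNAs have their own rows in the tables. Of the 37 that lie in introns only, 0 were higher and 16 lower in NAc set I, with a median log2 difference of -0.96, and 5 were higher and 13 lower in PFCx set I, with a median of -0.76. Of the 915 tested snoRNA genes outside the members, 17 were higher and 132 lower in NAc set I, with a median of -0.16, and 69 were higher and 198 lower in PFCx set I, with a median of -0.13. The snoRNAs in member introns were thus more often lower than higher in set I, while the coding transcripts of the members were more often higher. Estimates for molecules this short depend on how Cufflinks corrects for length, and are given as a description of the tables.

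In saline, 30 of 86 members differed between the tissues, with the saline set as a term of the model, where 44.9% of all genes did. A total of 25 were higher in the NAc, where 8.89% of all genes were, and 5 were lower, where 36% were. The median log2 difference was 0.20 over the members and -0.10 over all genes. Large-subunit members were higher in 15 and lower in 5 of 49 cases, and small-subunit members higher in 10 and lower in 0 of 37.

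Rpl6 was higher in the NAc by 0.82 ± 0.10 (SE, n = 8 per tissue; limma, adjusted p = 1e-05). The sets were unequal, and the tissues differed by 0.14 within set I, where the test was not passed, and by 1.51 within set II. The averaged value was 0.10 without its snoRNA-holding transcript (limma, adjusted p = 0.52). Rps19, a small-subunit protein whose loss causes Diamond-Blackfan anaemia in humans, had 62.4, 64.8, 71.6 and 63.5 FPKM in NAc set I and 46.2, 61.8, 49.1 and 22.8 in PFCx set I. In set II it had 34.3, 26.5, 32.03 and 38.8 FPKM in the NAc, against 21.2, 22.8, 13.0 and 8.91 in the PFCx. Within each set the NAc libraries were all above the PFCx libraries, and the log2 difference was 0.82 ± 0.20 (limma, adjusted p = 0.0046). Rpsa had 34.8 to 43.5 FPKM in the NAc and 26.3 to 36.1 in the PFCx in set I, and 24.7 to 30.8 and 12.1 to 19.1 in set II, a log2 difference of 0.50 ± 0.09 (limma, adjusted p = 6.03e-04). Its groups overlapped in set I and not in set II.

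Rps12 was higher in the NAc by 0.60, Rpl23a by 0.54 and Rpl37a by 0.49 on the log2 scale. The stalk proteins Rplp0, Rplp1 and Rplp2 were higher by 0.34, 0.32 and 0.22. Fau, at 0.27, did not pass the test (limma, adjusted p = 0.21), and Rps29 differed by -0.02 between the tissues.

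Lower in the NAc were Rpl21 by 0.43 ± 0.14 (limma, adjusted p = 0.025), Rpl23 by 0.33 ± 0.11 (limma, adjusted p = 0.020), and the low paralogs Rpl7l1 by 0.20, Rpl39l by 0.17 and Rpl3l by 0.17. Rpl23, a large-subunit protein also known to bind the p53 regulator Mdm2, had 18.0 to 23.9 FPKM in the NAc and 15.7 to 27.3 in the PFCx in set I, and 12.5 to 14.8 and 17.3 to 22.7 in set II. Its tissues overlapped in set I through PFCx replicate 4. Rpl21 had 18.7 FPKM in that library and 33.1 to 46.7 FPKM in the 7 other PFCx libraries, against 21.6 to 41.2 in the NAc. With coding transcripts only, Rpl23 differed by -0.07 between the tissues and did not pass (limma, adjusted p = 0.56). Rpl21 then differed by -0.47 (limma, adjusted p = 0.036). Of the members higher in the NAc, Rps4x, Rps3 and Rps18 were then at -0.16, -0.06 and 0.10 (limma, adjusted p = 0.23, 0.71 and 0.82). Rpl6 and Rpl10, at 0.28 and 0.26, did not pass either (limma, adjusted p = 0.15 and 0.14). Others still passed, among them Rpsa at 0.50, Rps19 at 0.71 and Rplp2 at 0.59.

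The tissue result depended on the libraries. Without PFCx replicate 4 of both sets, 19 members passed the test, and without the NAc set II replicate 4, the only single library to move the count by over 1.5 times, also 19. Within set I alone 5 members passed, and with no term for the set 4 did. With a common 75th percentile in every library 36 were higher in the NAc and 1 lower, against 25 and 5 as deposited. The shares of all genes under these settings are not given here. A shift particular to the members can therefore not be read from these counts.

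**Figure D4:**
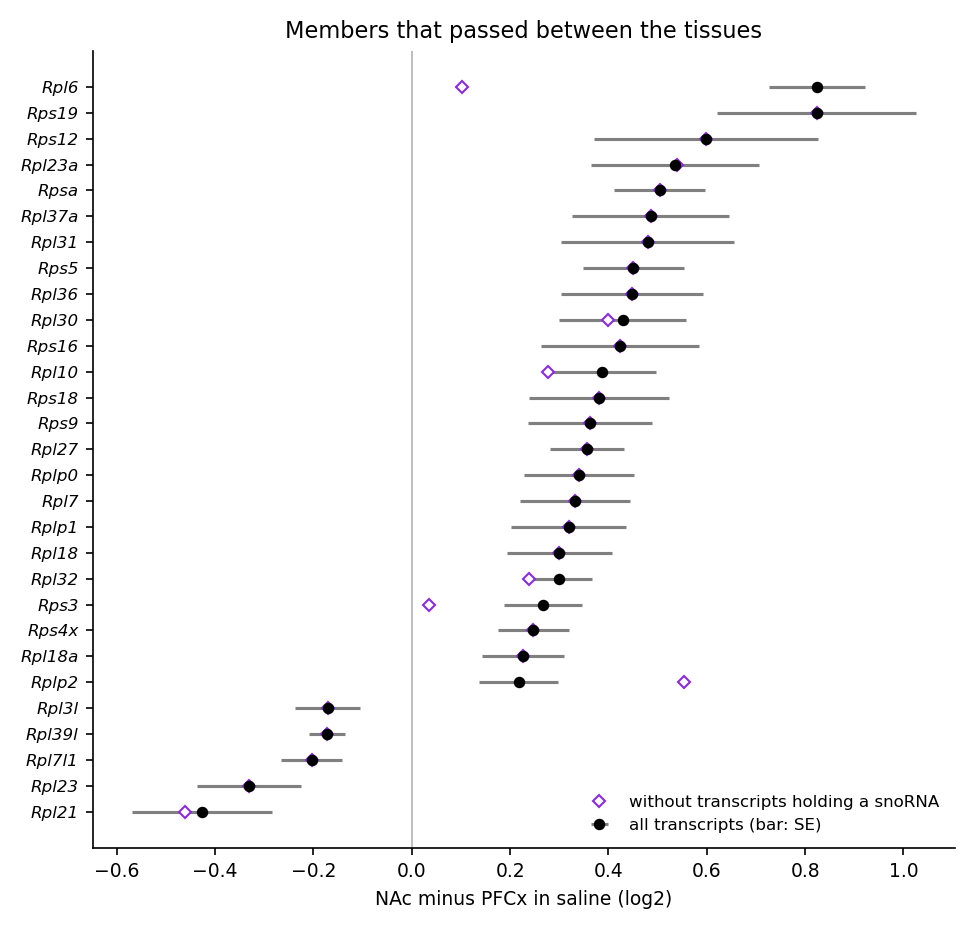
Difference between NAc and PFCx in saline (log2(FPKM + 1) scale, horizontal axis) for 29 of the 30 members that passed the test, with its standard error (n = 8 libraries per tissue), and the same value without snoRNA-holding transcripts. Rpl6 goes from 0.82 to 0.10 and Rps3 also moves toward 0, while Rplp2 moves up and most other members keep their place.

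Of the other lists, 7 of 23 translation factors and pyrimidine-tract mRNAs passed the test between the tissues, 5 of them higher in the NAc. Of 35 ribosome biogenesis genes 11 passed, all 11 lower in the NAc. Among 77 mitochondrial ribosomal protein genes 5 were higher and 7 lower. Over all genes 44.9% passed, with 8.89% higher and 36% lower in the NAc. The median was 0.20 over the members and -0.12 over the biogenesis genes, the latter close to that of all genes. Of the 37 snoRNAs in member introns only, 3 were higher and 24 lower in the NAc, with a median of -0.81, and of the 915 other snoRNA genes 16 were higher and 338 lower, with a median of -0.28.

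The drugs were compared with all 8 saline libraries of the tissue and with the 4 saline libraries of their own sample set. All drugs of a tissue share these controls. Over the 6 drugs of the NAc, 68 of 86 members passed the moderated F test with pooled saline, where 36.9% of all genes did. Against the saline of the own set 4 did, namely Rpl10, Rps3, Rpl32 and Rpl7a, where 1.63% of all genes did. In the PFCx 15 members passed with pooled saline, where 3.34% of all genes did. Without PFCx set II replicate 4 or PFCx set I replicate 2 the count was 24, as it was among genes with a mean of at least 1 FPKM. Here and for the single drugs below, counts with a library left out are given without the share of all genes. They show how far the member counts depend on single libraries, and no shift particular to the members can be read from them. Against the own set 0 passed (limma), with 7 at an unadjusted p under 0.05, where 1.45% of all genes passed.

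With pooled saline the 3 drugs of set I had positive and the 3 drugs of set II negative member medians in both tissues. In the NAc the median log2 differences were 0.25 for haloperidol, 0.31 for risperidone and 0.21 for methamphetamine, and -0.38 for mianserin, -0.47 for venlafaxine and -0.46 for ketamine. Against the own set these became -0.06, 0.03, -0.08, -0.05, -0.17 and -0.10 in the same order. In the PFCx the pooled medians were 0.35, 0.32 and 0.37 for the first 3 and -0.13, -0.30 and -0.07 for the last 3, and against the own set they were 0.00, -0.03, 0.01, 0.24, 0.09 and 0.34. The sign of the pooled medians followed the sample set, and with the own set no drug of set I had a median beyond 0.08 in size.

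**Figure D5:**
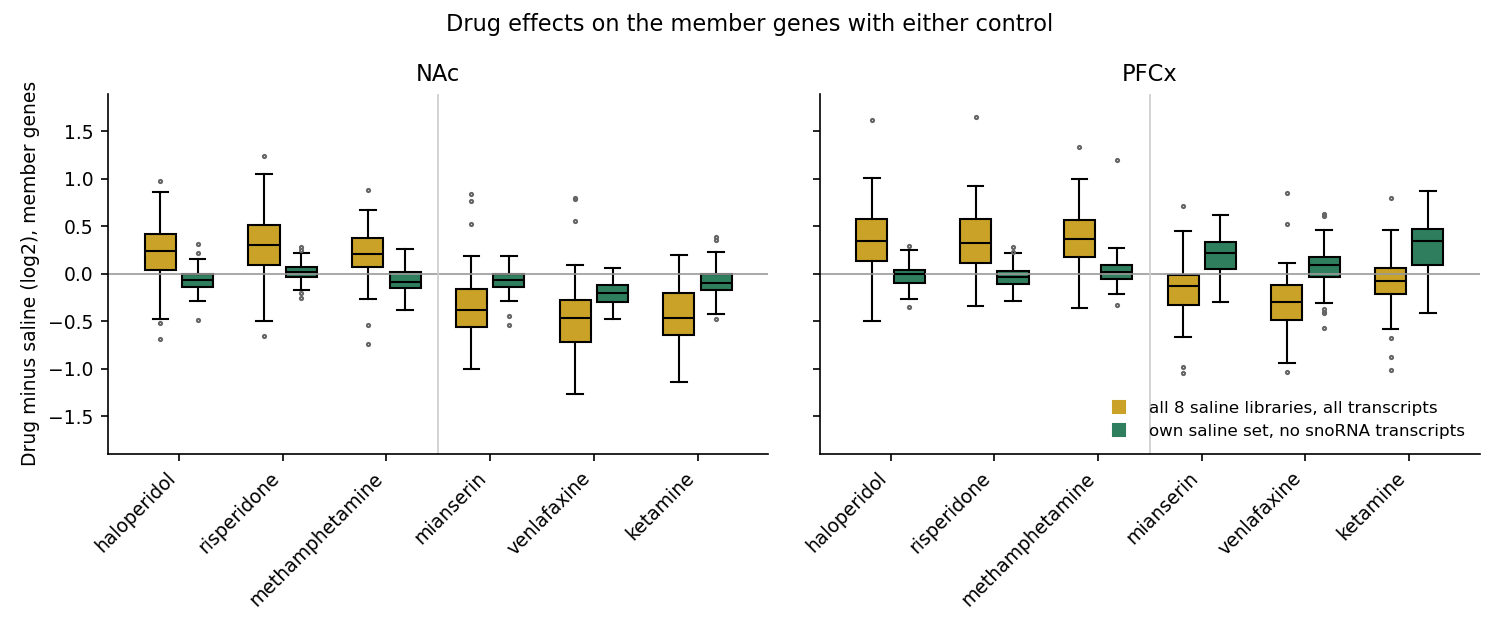
Differences between each drug and saline (log2(FPKM + 1) scale) over the 86 members in the NAc and the PFCx, as box plots (median, quartiles, whiskers to 1.5 times the interquartile range, points beyond), against pooled saline with all transcripts and against the saline of the own sample set without snoRNA-holding transcripts. With pooled saline the NAc medians are 0.25, 0.31 and 0.21 for haloperidol, risperidone and methamphetamine and -0.38, -0.47 and -0.46 for mianserin, venlafaxine and ketamine, and with the own set all NAc medians lie between -0.21 and 0.02.

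Haloperidol, a dopamine D2 receptor antagonist, changed 0 members in the NAc with either control (limma), with 27 and 2 members at an unadjusted p under 0.05 with pooled and own saline, where 0.721% and 0.235% of all genes passed. The lowest p was that of Rpl28 at 0.46 (limma, adjusted p = 0.085, pooled). Without NAc set I replicate 3 or 4, 2 or 1 members passed with pooled saline. In the PFCx it also changed 0 members (limma), with 26 and 0 unadjusted, where 0.162% and 0.0216% of all genes passed. Risperidone, an antagonist of dopamine D2 and serotonin 2A receptors, changed 0 members in the NAc (limma, 41 and 0 unadjusted), where 0.729% and 0.213% of all genes passed, and 0 in the PFCx (limma, 25 and 0 unadjusted), where 0.51% and 0.162% passed. With pooled saline 3, 2 and 3 members passed in the NAc without set I replicate 1, 3 or 4, and 1 in the PFCx without set I replicate 2 or 4. Rps29, at 1.05 with pooled saline in the NAc, was at 0.28 against set I. Methamphetamine, which releases dopamine, changed 0 members in the NAc (limma, 19 and 2 unadjusted), where 0.194% and 0.0891% of all genes passed, and 0 in the PFCx (limma, 22 and 0 unadjusted), where 0.351% and 0.159% passed.

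Mianserin, an antidepressant that blocks serotonin 2A and 2C receptors, changed 0 members in the NAc with pooled saline and 0 with set II (limma, 50 and 0 unadjusted), where 1.84% and 0.273% of all genes passed. Leaving out set II replicate 1, 2, 3 or 4 raised the pooled count to 10, 24, 11 and 3. In the PFCx 1 member, Rpl6, was higher by 0.71 ± 0.17 with pooled saline (limma, adjusted p = 0.036), where 0.667% of all genes passed. Against set II, 2 other members were higher, among them Rpl10 by 0.62 (limma, adjusted p = 0.030), where 2.01% of all genes passed. The pooled count was 0 without mianserin replicate 1, 2 or 3, set II replicate 1 or 3, or set I replicate 1, 3 or 4, and 2 without mianserin replicate 4. Rpl6 FPKM after mianserin in the PFCx was 492, 333, 315 and 221, and without its snoRNA-holding transcript the pooled difference was -0.25. Without that transcript class Rpl10 differed from set II by 0.12.

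Venlafaxine, an inhibitor of serotonin and noradrenaline uptake, changed 12 members in the NAc with pooled saline, all lower, where 1.83% of all genes passed and 0.729% were lower. Among the 6 largest differences were those of Rps28 (-1.10), Rps21 (-1.01), Rpl17 (-0.98), Rps19 (-0.97) and Rpl23a (-0.96). The pooled count was 0 without any of the 4 set I libraries or without venlafaxine replicate 3 or 4, 1 and 25 without venlafaxine replicate 1 or 2, and 44, 46, 43 and 27 without set II replicate 1, 2, 3 or 4. Against set II 0 passed (limma, 8 unadjusted), where 0.0081% of all genes did, and Rps28 differed by -0.40 (limma, adjusted p = 0.75). In the PFCx 0 passed with pooled saline (limma, 15 unadjusted), where 0.0054% of all genes did, and 1, Rpl6, was higher against set II by 0.79 (limma, adjusted p = 0.048), where 0.74% of all genes passed. Without the snoRNA-holding transcript that value was 0.08.

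Ketamine, a blocker of NMDA receptors, gave the only member differences in the NAc that passed against the own saline set. With pooled saline 10 members were lower and 0 higher, where 1.97% of all genes passed and 0.54% were lower. The largest of these were Rps12 (-1.12), Rps19 (-0.92), Fau (-0.87), Rpl30 (-0.77), Rps13 (-0.71) and Rpl14 (-0.68). The pooled count was 4, 6, 5 and 5 without ketamine replicate 1, 2, 3 or 4, 6 without any 1 of the set I libraries, and 28, 32 and 22 without set II replicate 1, 2 or 3. Against set II 6 members were lower and 0 higher, where 0.967% of all genes passed and 0.618% were lower. They included Rpl10 (-0.96 ± 0.14, limma, adjusted p = 6.93e-05), Rpl32 (-0.82 ± 0.17, limma, adjusted p = 0.0078), Rps3 (-0.69 ± 0.08, limma, adjusted p = 7.37e-06), Rpl30 (-0.54 ± 0.12, limma, adjusted p = 0.026) and Rpl7a (-0.38 ± 0.09, limma, adjusted p = 0.045).

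Each of these 6 genes holds a snoRNA in an annotated transcript. Rpl10 FPKM in the NAc was 67.2, 53.4, 51.8 and 56.9 after ketamine against 122, 112, 108 and 108 in saline set II. Rps3 FPKM was 24.8, 23.9, 29.8 and 24.99 against 41.9, 37.8, 41.3 and 48.5. In both genes all ketamine libraries were below all set II libraries, and the ketamine values of Rpl10 lay in the range of saline set I, which was 50.9 to 83.5. Rpl32 FPKM was 141, 81.7, 71.9 and 101 after ketamine and 172, 175, 179 and 153 in set II, with no overlap.

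The Rpl10 transcript with Snora70 had 29.0 to 46.8 FPKM after ketamine and 84.3 to 95.5 in saline set II. The coding transcript of Rpl10 (ENSMUST00000008826, 799 bases) had 12.3 to 15.2 FPKM and 10.3 to 18.4. The Rps3 transcript with Snord15b had 11.4 to 16.7 FPKM after ketamine and 29.2 to 37.0 in set II. The Rpl30 transcript with Gm24523 had 1.71 to 2.48 FPKM after ketamine and 5.61 to 7.45 in set II. These 3 snoRNA-holding transcripts were wholly lower after ketamine, while the Rpl10 coding transcript overlapped its control.

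At the transcript level 5 member transcripts passed against set II in the NAc, where 0.339% of all transcripts did. All 5 hold a snoRNA and were lower, by 1.34 in Rpl10, 1.29 in Rps3, 1.28 in Rpl30 and 0.84 in Rpl32 among them on the log2 scale. With the snoRNA-holding transcripts left out, 0 members passed at the gene level (limma, 6 unadjusted), where 0.886% of all genes did. Rpl10 then differed by -0.07, Rps3 by 0.39, Rpl32 by 0.35 and Rpl30 by -0.17. Rpl7a, at -0.39, kept its size without passing (limma, adjusted p = 0.064). It had 36.5, 36.3, 40.2 and 36.2 FPKM after ketamine, all below the 45.5 to 51.7 of set II. Of the 37 snoRNAs in member introns only, 0 were higher and 10 lower after ketamine, with a median log2 difference of -0.82, and of 915 other snoRNA genes 0 were higher and 88 lower.

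In the PFCx ketamine changed 0 members with pooled saline (limma, 6 unadjusted), where 0.0162% of all genes passed. Against set II, 2 were higher, where 1.51% of all genes passed, namely Rpl18 by 0.73 ± 0.18 (limma, adjusted p = 0.032) and Rpl6 by 0.74 ± 0.19 (limma, adjusted p = 0.048). Rpl18, a large-subunit protein whose transcripts hold no snoRNA, had 31.2, 31.9, 31.1 and 23.0 FPKM after ketamine and 20.01, 19.4, 19.2 and 11.6 in saline set II. The lowest value of each group was that of replicate 4. The Rpl6 transcript with Gm26205 had 393, 239, 293 and 388 FPKM after ketamine in the PFCx and 152, 217, 189 and 200 in set II, so that it was higher in the PFCx, and in the NAc it had 513, 383, 294 and 382 against 569, 557, 561 and 603. Without PFCx replicate 4 of every group, 8 members passed against set II.

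The ketamine difference from the own saline set differed between the tissues for 7 members, where 2.02% of all genes passed this test. They included Rpl10 (-1.49 ± 0.21 on the log2 scale, NAc minus PFCx), Rpl6 (-1.29 ± 0.26), Rpl32 (-1.27 ± 0.22), Rps3 (-1.18 ± 0.16), Rpl37a (-1.13 ± 0.31) and Rpl18 (-0.89 ± 0.25). All but Rpl37a and Rpl18 have a snoRNA-holding transcript. Rpl37a FPKM was 7.49 to 10.9 after ketamine and 8.67 to 14.6 in set II in the NAc, and 9.43 to 14.2 and 5.19 to 6.80 in the PFCx. Its log2 difference was -0.34 (NAc) and 0.78 (PFCx), and neither passed by itself (limma, adjusted p = 0.28 and 0.17). With pooled saline 0 members passed the test of this difference between tissues (limma, 10 unadjusted), where 0.313% of all genes did.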

How the data were processed

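Total RNA of the NAc and PFCx was depleted of ribosomal RNA and sequenced on an Ion Torrent instrument with single-end reads. Per the paper and the submitters' processing notes, the authors aligned the reads with TopHat2 2.0.1, followed by Tmap, to mm10 and estimated transcript levels with Cufflinks 2.2.1. The deposited tables hold, for each of 112714 annotated transcripts in each of the 64 libraries, an FPKM value scaled by the authors to transcript length and mapped fragments, and a read coverage that the authors deposited without scaling to depth. They hold no counts. How reads that match several places were handled is not given in the sources used here. Of the values, 136 lacked a complete status, 0 of them in members.

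FPKM values were summed per gene. Tests took in the 37034 genes, or 86331 transcripts, whose mean reached 0.1 FPKM in either tissue (32 libraries each). Tests used log2(FPKM + 1), which understates changes of low genes, and limma 3.58.1 in R 4.3.3, two-sided, with Benjamini-Hochberg adjustment over all genes and a threshold of 0.05. A term for the saline set stood in the tissue comparison, and drugs were compared with pooled saline per tissue. Dividing coverage by FPKM gave the aligned bases of each library, as the median over transcripts with a length of 2000 bases or more and 5 FPKM or more. The depth of single values is unknown, so that no interval from counting is given. Transcript types, exons and snoRNAs came from GENCODE vM21 on GRCm38, which covered 99.0% of the transcripts. The limma code was first tested on simulated data. Tables were handled in Python 3.11.15 with pandas 2.3.3, numpy 2.4.6 and scipy 1.17.1.

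The members and gene lists were chosen with earlier results of these data known. Named were the single genes and paralogs listed first, the 5 highest and 5 lowest tested members, in each comparison up to 6 passing members with the largest difference in either direction, or the 3 with the lowest p where fewer than 3 passed, and up to 5 transcripts of at least 300 bases. Mrpl14 and Eef1b2, the coding transcripts of snoRNA hosts and the snoRNAs printed were chosen after their values were seen. Alternatives tried were no filter or a mean of at least 1 FPKM, a pseudocount of 0.1, coding transcripts only, a common 75th percentile, a mean-variance trend, the replicate block, the own saline set, transcripts in place of gene sums, and leaving out each library. Leaving out snoRNA-holding transcripts or PFCx replicate 4 was added after seeing the data, as was the test of ketamine by tissue. The transcript assembly, arrays, PCR and mass spectrometry of the study were not analysed here. Some items that the naming rule selects are counted but not reported here.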

Additional observations from a re-analysis of the deposited data

Results flagged for a closer look

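In groups of 4 libraries, 1 value stood apart from the other 3 by Dixon's 95% criterion in 5 of 80 groups examined, where chance alone gives about 1 in 20. Rpl23 had its lowest value of PFCx saline set I, 15.7 FPKM, in replicate 4, the library with the lowest member sum of its group. Rplp0 had its highest value of NAc saline set II, 26.8 FPKM, in replicate 4. The Rps3 transcript that holds Snord15b had a single high library of 16.7 FPKM in NAc ketamine, of 34.8 FPKM in PFCx ketamine and of 16.3 FPKM in PFCx saline set II.

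The difference between saline sets I and II differed between the tissues by the test of the interaction for Rpl6 (-1.38, NAc minus PFCx on the log2 scale), Rpl10 (-1.33), Rpl32 (-1.09) and Rps3 (-1.05), among others. The difference between ketamine and its own saline set differed between the tissues for Rpl10 (-1.49), Rpl6 (-1.29), Rpl32 (-1.27), Rps3 (-1.18), Rpl37a (-1.13) and Rpl18 (-0.89), among others.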

How the results depend on the processing

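The counts in this section are of members, and the share of all genes under each alternative is not given. The set comparisons kept their counts within 1.5 times under every alternative run, and single libraries left out gave 35 to 57 members in the NAc and 43 to 63 in the PFCx. The tissue count of 30 became 19 with the replicate block, 5 in saline set I only, 4 with no term for the saline set and 19 without PFCx replicate 4, and 19 to 33 without single libraries. The set by tissue count of 5 became 1 with coding transcripts only, 0 without snoRNA-holding transcripts as deposited or rescaled to the 75th percentile, 8 without PFCx replicate 4, and 5 to 12 without single libraries.

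In the NAc the count for haloperidol was 1 with transcripts in place of gene sums, and that for mianserin was 1 with these, with coding transcripts only, and without snoRNA-holding transcripts as deposited or rescaled. Venlafaxine gave 1 with a mean of at least 1 FPKM, 20 with a mean-variance trend, 4 with the replicate block, 0 with the own saline set with or without snoRNA-holding transcripts, 20 without them and rescaled, and 2 with transcripts. Ketamine gave 16 when rescaled, 3 with coding transcripts only, 6 with the own set, 0 with the own set without snoRNA-holding transcripts and 0 with transcripts. The drug effect gave 4 with the own set and 1 with the own set without those transcripts. Single libraries left out gave 0 to 2 for haloperidol, 0 to 3 for risperidone, 0 to 24 for mianserin, 0 to 46 for venlafaxine, 4 to 32 for ketamine and 65 to 69 for the drug effect.

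In the PFCx mianserin gave 0 with a pseudocount of 0.1, coding transcripts only, a trend, or without snoRNA-holding transcripts (as deposited, rescaled or with the own set), 2 with the own set, 3 without PFCx replicate 4, 4 with both of these and 2 with transcripts. Venlafaxine gave 1 with the own set. Ketamine gave 2 with the own set, 1 with it and without snoRNA-holding transcripts, and 8 with it and without PFCx replicate 4. The drug effect gave 24 with a mean of at least 1 FPKM, 28 with the replicate block, and 0 with the own set, also without snoRNA-holding transcripts or PFCx replicate 4. Single libraries left out gave 0 to 2 for mianserin, 0 to 1 for risperidone and 11 to 24 for the drug effect.

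The alternatives were followed for the members with the largest differences of each comparison, or the lowest p where fewer than 3 passed. Among these, reversed values on the log2 scale were those of snoRNA hosts. In the NAc sets Rpl6 was at 0.98 with coding transcripts only, 0.68 without snoRNA-holding transcripts and 0.62 when these were also rescaled, Rpl32 at 1.78 and 1.76 under the last 2, and Rpl10 at 0.19, 0.24 and 0.18. In the set by tissue difference Rpl10 was at 0.0006 and 0.014 under the last 2, Rpl32 at 0.86 and 0.89, and Rps3 at 0.78, 0.52 and 0.54 under all 3. Rpl6 after mianserin in the PFCx was at -0.35, -0.25 and -0.20. Other members could also reverse. Rps4x, which has no snoRNA-holding transcript, was higher in the NAc than in the PFCx by 0.25 (limma, adjusted p = 0.012). With coding transcripts only it was at -0.16 (limma, adjusted p = 0.23). These alternatives remove the transcripts concerned by construction. The cause of the other shifts was not tested.

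Replicate numbers were not taken as a pairing, since the labels give none and the correlation of deviations between libraries with the same number was not over 0.1 in every pair, with a lowest value of -0.25 between the tissues. Within a tissue and sample set same-numbered libraries correlated more than others on average. The mean correlation of same-numbered libraries was 0.14 and 0.07 in NAc sets I and II and 0.22 and 0.11 in PFCx sets I and II, with lowest values of 0.065, -0.036, 0.022 and -0.069, and 15, 13, 16 and 11 of 16 libraries correlated best with their own number. Libraries with different numbers had mean correlations of -0.048, -0.024, -0.07 and -0.035 in the same order. The main tests held no term for the replicate number. The replicate block moved no count other than those given above by over 1.5 times. Depth allows no test of single reads, and the values of isoforms that share reads depend on each other.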
